A study of Mus musculus with 32 samples.

Results

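Jejunum from male mice that lack Khk (Khk KO) was compared with jejunum from male wild-type (WT) mice, 4 libraries against 4. These are 8 of the 32 libraries of the series, chosen as those labelled jejunum. The series asked how fructose and the enzyme ketohexokinase act on iron homeostasis, and the same genotypes were also sampled in liver, duodenum and ileum. The genotype comes from the sample titles. The labels give no age, diet, strain, Khk allele, promoter or line, so it is not known whether the deletion covers all cells of the mouse. They give no method of dissection, so it is not known how much of the muscle layer or of the attached fat was kept. All 2413 genes of the jejunum table are described, beside genes of similar length.

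Ketohexokinase is the kinase that commits fructose to breakdown in the cell. The jejunum is the main site of nutrient absorption, and its absorptive enterocytes take up dietary fructose, phosphorylate much of it and pass the products on to the portal blood. The same cells split sugars at the brush border, package fat into chylomicrons and export conjugated compounds. Goblet cells secrete mucus, Paneth cells at the crypt base secrete defensins, enteroendocrine cells secrete hormones, and plasma cells in the lamina propria make the antibodies that are carried into the lumen.

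The reads of the genes in the table came to 3053896 to 4325568 per library. Replicate libraries of one genotype differed by more than counting error, with a chi-square per degree of freedom of at least 16.02. WT replicate 1 stood apart. Its chi-square per degree of freedom against the other 3 WT libraries was 136 to 178, so a result that moves by over 1.5 times when it is left out is also given without it. The enterocyte genes Sis, sucrase-isomaltase (47216 to 77662 normalised counts), and Apoa1, the apolipoprotein of chylomicrons and HDL (125477 to 408134), were abundant in every library. A normalised count is the read count divided by the authors' size factor of the library. A gene is in the table only if its unadjusted p was below 0.05 in the authors' test, so nothing is known here of the genes it leaves out, and counts within it describe genes already chosen for a difference.

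Khk itself was measured at 541, 837, 805 and 827 normalised counts in Khk KO replicates 1 to 4 and at 13852, 6477, 6647 and 5579.5 in WT replicates 1 to 4. Every Khk KO library lay below every WT library, and WT replicate 1 was 2.22 times as high as the other WT libraries on average. Khk KO kept 9.25% of the WT mean. The log2 fold change in edgeR was -3.43 ± 0.32 (SE), with an adjusted p of 0.00914 from its quasi-likelihood test. Without WT replicate 1 it was -3.05. Leaving out any 1 of the Khk KO libraries took that adjusted p past the threshold, to 0.0761 to 0.132, with log2 fold changes of -3.49 to -3.31. An exact two-sided permutation test gave p = 0.0286, the smallest value that 4 against 4 libraries allow. Khk (ENSMUSG00000029162, GRCm38 chr5:30921431-30931248, plus strand) is 1797 bases long in the table, and 98.5% of the 200 protein-coding genes nearest to it in length had a higher fold change.

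**Figure D1:**
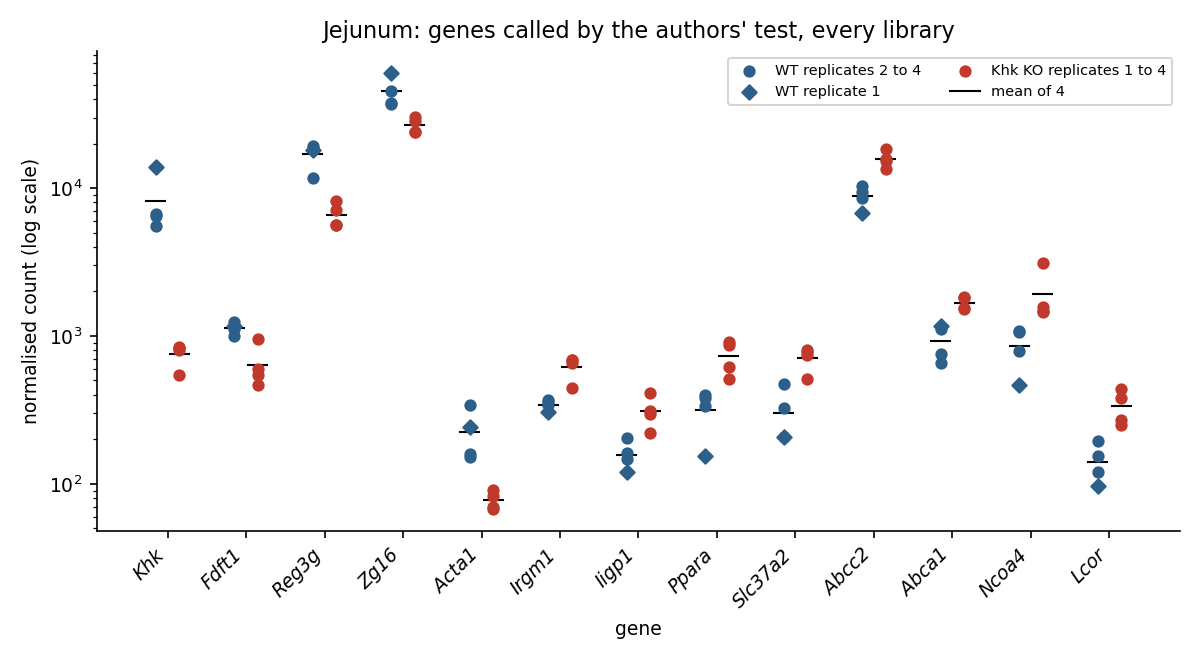
Normalised counts on a log scale of 13 genes past the authors' adjusted p threshold, one point per library, with WT left and Khk KO right of each gene name and a line at the mean of 4. Diamonds mark WT replicate 1, which is the highest library for Khk and lies below the other WT libraries for Ppara and Ncoa4.

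Of the 9881 genes the authors adjusted over, 75 (0.759%) had an adjusted p below 0.05 in the authors' deposited table. Of these 53 (0.536%) were higher in Khk KO and 22 (0.223%) were lower, and only these genes are said below to have risen or fallen. Unadjusted, 16.7% of the 9881 genes had a p under 0.05 in the authors' deposited table. The genotypes did not overlap for 46 of the 53 and 20 of the 22, where 56.0% of all 2413 genes of the table did not overlap (33.0% higher and 23.0% lower). Refitting the table's counts with edgeR's quasi-likelihood test and adjusting over 9881 genes called only Khk, or 0.0489% of 2045 genes fitted, although 1754 of them (85.8%) had an unadjusted p under 0.05. The lowest adjusted p of any other gene in that refit was 0.252. A refit with DESeq2 called 262 genes (10.9%). All 75 genes had an unadjusted p under 0.05 in edgeR and an adjusted p under 0.05 in DESeq2.

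Direction followed gene length. The 39 protein-coding genes that rose had a median length of 10782 bases, and 31 of them were over 7000 bases. The 21 protein-coding genes that fell had a median of 2114 bases, and 19 were under 4300 bases. In all, 54.0% of the genes of the table were higher in Khk KO and 46.0% lower. The protein-coding genes that averaged 50 or more normalised counts were put in 6 classes by length. The share that was higher went from 1.77% (341 to 1722 bases) through 9.57%, 25.4%, 68.7% and 92.2% to 98.2% (10814 to 41155 bases). The median log2 fold change went from -0.58 in the shortest class to 0.51 in the longest.

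The same trend was measured in each library as a smooth curve on gene length of how far it lay from the average of the 8 libraries. From 1000 to 10000 bases the curve rose by 0.168, 0.458, 0.539 and 0.750 log2 units in Khk KO replicates 1 to 4. In WT replicates 1 to 4 it changed by -1.21, -0.181, -0.341 and -0.101. All 4 Khk KO curves rose and all 4 WT curves fell, and that of WT replicate 1 fell most. The curves rest on genes of the table, all selected for a difference between the genotypes, so they restate the direction by length given above. Their slope over the genes left out is not known, and taking the curves out may correct too much. The mean rise was 0.937 log2 units higher in Khk KO than in WT, and 0.686 without WT replicate 1. Its cause was not tested. Below, values with the curve of each library taken out stand beside the changes that this moves by over 1.5 times, and beside most others. This also takes out any genotype effect that follows length. With it taken out, 27.5% of the genes fitted had an unadjusted p under 0.05 in edgeR. Of the called genes, 49 of the 53 that rose and all 22 that fell kept their direction, and 31 and 15 of them kept an unadjusted p under 0.05. Without WT replicate 1 all 75 kept their direction, and edgeR called 3 genes (0.144%), Khk, Ank3 and Tnc.

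**Figure D2:**
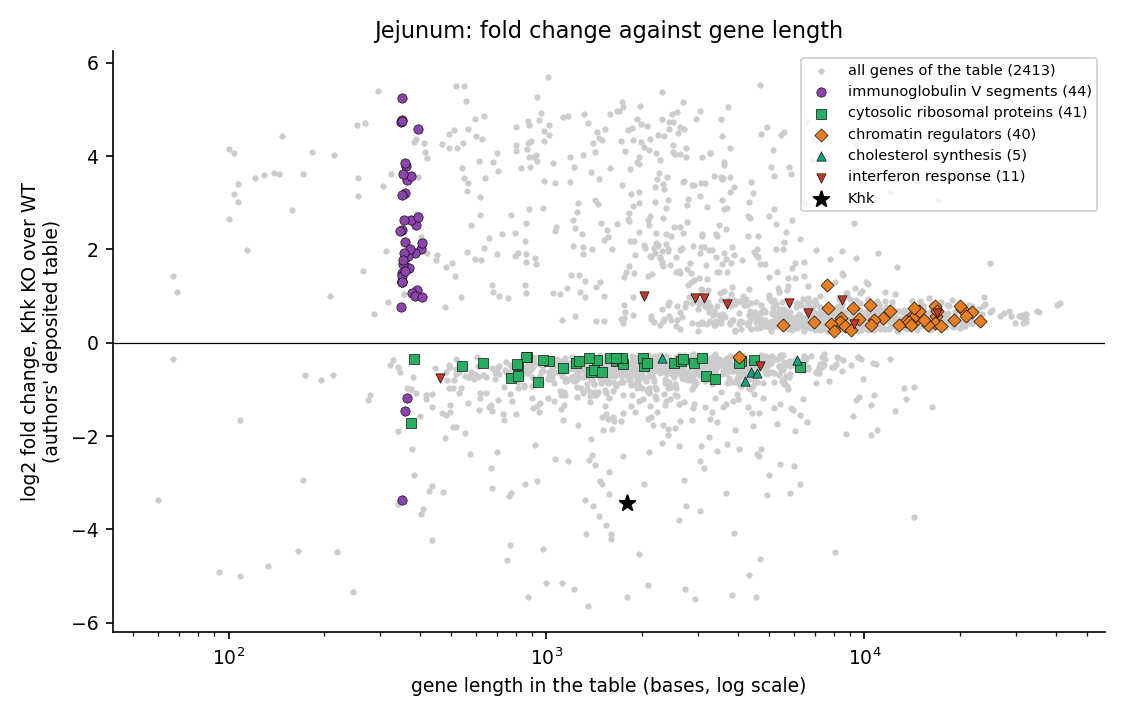
Log2 fold change (Khk KO over WT, from the authors' deposited table) against gene length in bases on a log scale, one point per gene of the table, with 5 groups and Khk marked. Ribosomal protein genes lie below 0 at short lengths and chromatin regulators above 0 at long lengths, while 41 of the 44 immunoglobulin V segments lie above 0 at lengths where most genes lie below it. Of the 11 interferon genes, short and long, 9 lie above 0.

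**Figure D3:**
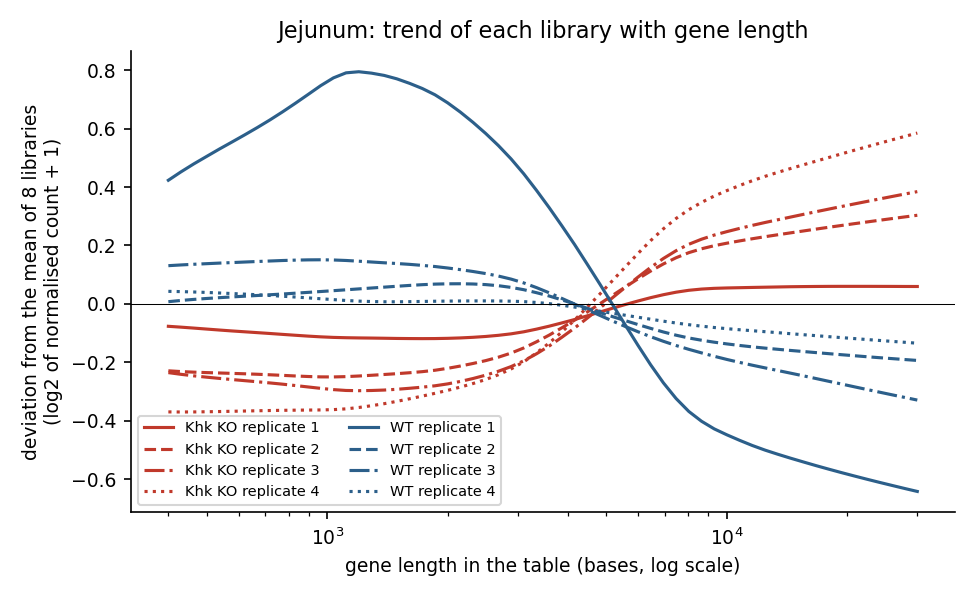
Smooth trend with gene length (bases, log scale) of how far each library lay from the average of the 8 libraries, in log2 of the normalised count plus 1. The 4 Khk KO curves rise and the 4 WT curves fall with length, and WT replicate 1 has the steepest fall, -1.21 log2 units from 1000 to 10000 bases. The curves rest on genes selected for a difference between the genotypes.

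Genes of cholesterol synthesis in the table were lower in Khk KO. Of a list of 24, 5 were in the table (20.8%), beside 16.7% of the 9881 genes the authors adjusted over. All 5 were lower, and 1 of them fell, Fdft1, against 0.223% of all genes. Fdft1, squalene synthase, was at 950.0, 594, 463 and 544 normalised counts in Khk KO and at 1169, 994, 1113 and 1247 in WT. No Khk KO library reached the lowest WT library. Its log2 fold change was -0.83 ± 0.21 (SE), or -0.73 with the length trend taken out, and the adjusted p in the authors' deposited table was 0.0442. Reads of Fdft1 can be shared with Ctsb on the other strand, which covers 18.3% of its exon bases, and the strand setting of the counts is not known. Cyp51, which removes a methyl group from lanosterol, was at 1141, 853, 717 and 1010.5 in Khk KO and 1569, 1299, 1400.3 and 1445 in WT, also with no overlap, and missed the threshold in the authors' deposited table (adjusted p 0.0575). Hmgcs1, which makes the precursor of mevalonate, had a log2 fold change of -0.65 ± 0.20 (SE) with overlapping genotypes. The other listed members, chosen after their values were seen, were Msmo1 at -0.37 ± 0.17 (SE), or -0.58 with the trend taken out, and Ebp at -0.32 ± 0.11 (SE). Taking the length trend out left 4 of the 5 lower and turned Ebp to 0.086. The median of the 5 log2 fold changes was -0.62, or -0.58 with the trend taken out, beside -0.41 for genes of like length. At 4475 bases, near their median length of 4415, the library curves lay at -0.049 to 0.14. Taking the trend out therefore moves genes of that length little. Erg28, a scaffold of sterol synthesis enzymes, was outside the list. It fell from 895 ± 96 to 601 ± 63.7 normalised counts (SD, n = 4), by 0.57 on the log2 scale.

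Genes in the table that interferon gamma is known to induce were mostly higher, led by the immunity-related GTPases. These GTPases act on the membranes around intracellular microbes. Of 48 listed interferon genes 11 were in the table (22.9%), beside 16.7% of the 9881 genes the authors adjusted over. Of the 11, 9 were higher, and 2 rose, Irgm1 and Iigp1, against 0.536% of all genes. RefSeq promoters (GRCm38.p6) of 5 of these GTPase genes on chromosome 11 are printed because these genes were higher together. Each is a window of 120 bases, written 5′ to 3′ on the gene's strand, upstream of or across the RefSeq start site.
Irgm1 (chr11:48871383-48871502, minus strand): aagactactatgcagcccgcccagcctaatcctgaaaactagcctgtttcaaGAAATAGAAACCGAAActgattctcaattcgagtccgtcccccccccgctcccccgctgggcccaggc
Irgm2 (chr11:58214852-58214971, plus strand): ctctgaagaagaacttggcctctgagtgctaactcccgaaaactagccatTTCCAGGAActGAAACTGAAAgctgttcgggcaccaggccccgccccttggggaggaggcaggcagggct
Igtp (chr11:58199461-58199580, plus strand): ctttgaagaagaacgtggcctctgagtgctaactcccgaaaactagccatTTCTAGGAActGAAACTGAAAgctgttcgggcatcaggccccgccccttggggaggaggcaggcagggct
Tgtp2 (chr11:49064224-49064343, minus strand): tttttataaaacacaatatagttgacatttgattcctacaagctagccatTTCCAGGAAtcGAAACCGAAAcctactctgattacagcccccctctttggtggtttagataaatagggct
Gm12250 (chr11:58183719-58183838, plus strand): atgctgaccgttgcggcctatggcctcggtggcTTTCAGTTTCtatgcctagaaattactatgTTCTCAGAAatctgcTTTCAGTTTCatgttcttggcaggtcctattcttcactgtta
Capitals mark matches to 2 motifs searched on both strands, the interferon-stimulated response element as a pair of GAAA with any 2 bases between them, and the gamma-activated site as TTC and GAA with any 3 bases between them, which reads the same on both strands. In Irgm1 a pair of response element matches overlaps. In Gm12250 the response element matches lie on the other strand and read TTTCAGTTTC. All 5 promoters hold the response element, which 3.44% of the 32851 RefSeq promoters hold in their 300 bases, and all but that of Irgm1 hold the gamma-activated site, which 8.3% hold. A match is a description and does not show that a factor binds there. The 5 genes are relatives picked because they were higher, and the windows of Irgm2 and Igtp are nearly the same sequence. That all 5 match is therefore no test of enrichment against those shares. Promoters of the other listed interferon genes are not shown. RefSeq starts Gm12250 upstream of the pseudogene model that was counted (GRCm38 chr11:58187739-58189012, plus strand).

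Irgm1 was at 660.5, 685, 688 and 444 normalised counts in Khk KO and at 304, 359, 369.9 and 341 in WT. All 4 Khk KO libraries exceeded all WT libraries, with replicate 4 the lowest of them. The log2 fold change of Irgm1 was 0.85 ± 0.17 (SE), with an adjusted p of 0.00774 in the authors' deposited table, and 0.70 with the length trend taken out. Iigp1, the effector of the family, was at 310.1, 409, 295 and 220.3 in Khk KO and 119, 160.5, 146 and 204 in WT. It rose by 0.97 ± 0.24 (SE) on the log2 scale, where genes of like length had a median of -0.40, and by 1.23 with the length trend taken out. Gm12250, a GTPase gene of the same family that is annotated as a processed pseudogene, was at 238, 279, 284 and 195 in Khk KO and 79.3, 135, 153 and 97.8 in WT. It rose by 1.10 ± 0.24 (SE) on the log2 scale (adjusted p 0.0152 in the authors' deposited table) and was chosen after its values were seen, as were Tgtp2 and the members named after it. Irgm2 (0.83 ± 0.21 (SE)) and Igtp (1.01 ± 0.32 (SE)) did not pass, and their libraries overlapped. Igtp and Irgm2 share exon bases on the same strand, 8.01% of those of Igtp, so their reads cannot be split with certainty.

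Khk KO replicate 4 was the lowest Khk KO library for Irgm1, Iigp1, Irgm2, Igtp, Gm12250 and Tgtp2. Tgtp2, a T-cell GTPase with a near-identical neighbouring copy, was at 174, 155, 134 and 76 in Khk KO and 12.3, 86.8, 90.2 and 88.4 in WT, so its log2 fold change of 0.95 ± 0.52 (SE) became 0.60 without WT replicate 1. Nlrc5, the activator of MHC class I genes (0.91 ± 0.38 (SE)), and Rnf213 (0.65 ± 0.19 (SE)) were higher and did not pass. Both are long, and with the length trend taken out they were at 0.58 and 0.12. The 2 listed genes that were lower were Xaf1 (-0.50 ± 0.20 (SE)) and Ifi27l2a (-0.76 ± 0.30 (SE)). Xaf1 was at -0.30 without WT replicate 1, and Ifi27l2a at -0.35 with the length trend taken out. Over the 11 genes the median log2 fold change was 0.83, or 0.58 with the length trend taken out, beside -0.34 for genes of like length. Only 4 of the 11 ran against the sign of genes of like length. Those nearest to Irgm1, Nlrc5 and Rnf213 in length had medians of 0.39, 0.48 and 0.49.

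Immunoglobulin variable (V) segments, which encode the antigen-binding ends of antibody chains, ran against the length trend. The table held 44 of them, 347 to 405 bases long, of which 41 were higher and 3 lower in Khk KO. They comprise 19 of 20 kappa, 21 of 23 heavy and the 1 lambda segment higher. By the authors' deposited table, 10 of them rose and none fell, against 0.536% and 0.223% of all genes, and the genotypes did not overlap for 11 of the 44, a smaller share than the 56.0% of all genes of the table. Of 17 protein-coding genes under 500 bases 2 were higher. The V segments summed to 32513, 25491, 15999 and 29825 normalised counts in Khk KO replicates 1 to 4, and to 4868, 7555, 8181 and 12764 in WT replicates 1 to 4. The lowest Khk KO sum lay above the highest WT sum, and WT replicate 1 was the lowest library. All 44 segments were selected for a difference between the genotypes, so this gap follows in part from that selection. V segments outside the table are not in the sums. The median log2 fold change was 1.97, or 2.22 with the length trend taken out and 1.68 without WT replicate 1.

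Igkv1-117 (GRCm38 chr6:68121046-68121827, plus strand) was at 4639.6, 3609, 1803 and 3774 normalised counts in Khk KO and at 355, 1445, 769.8 and 848 in WT, with no overlap. Its log2 fold change was 2.02 ± 0.41 (SE) and its adjusted p 4.19e-05 in the authors' deposited table. Iglv1, the lambda segment, was at 3133, 2662, 2681 and 4576 in Khk KO and 1112, 872, 1684 and 2316 in WT and rose by 1.12 ± 0.30 (SE) on the log2 scale. Ighv1-26, a heavy chain segment, was at 1153, 1286, 813 and 1738 in Khk KO and 226, 439.7, 413 and 684 in WT and rose by 1.50 ± 0.33 (SE). Ighv7-3 shows how uneven single segments were. It was at 1891, 442, 34.1 and 1867 in Khk KO, with 1 Khk KO library below 3 of the WT libraries and the others far above them, and at 43.5, 33, 86.9 and 140.4 in WT. Of the 3 lower segments Ighv8-8 was at 77.1, 53.3, 106 and 67.4 in Khk KO and 89.3, 139, 128 and 484 in WT, where WT replicate 4 stood above the rest. These 5 segments were chosen after their values were seen. Segments of one family are near-identical, so their reads may be split between copies. Each mouse makes its own set of antibodies. Of the 24 listed B and plasma cell markers the table held only Prdm1, a regulator of plasma cells and enterocytes (0.58 ± 0.19 (SE)), and of the joining and constant segments only 1. In bulk tissue more cells of a type and more RNA per cell cannot be told apart, here and in the groups below.

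**Figure D4:**
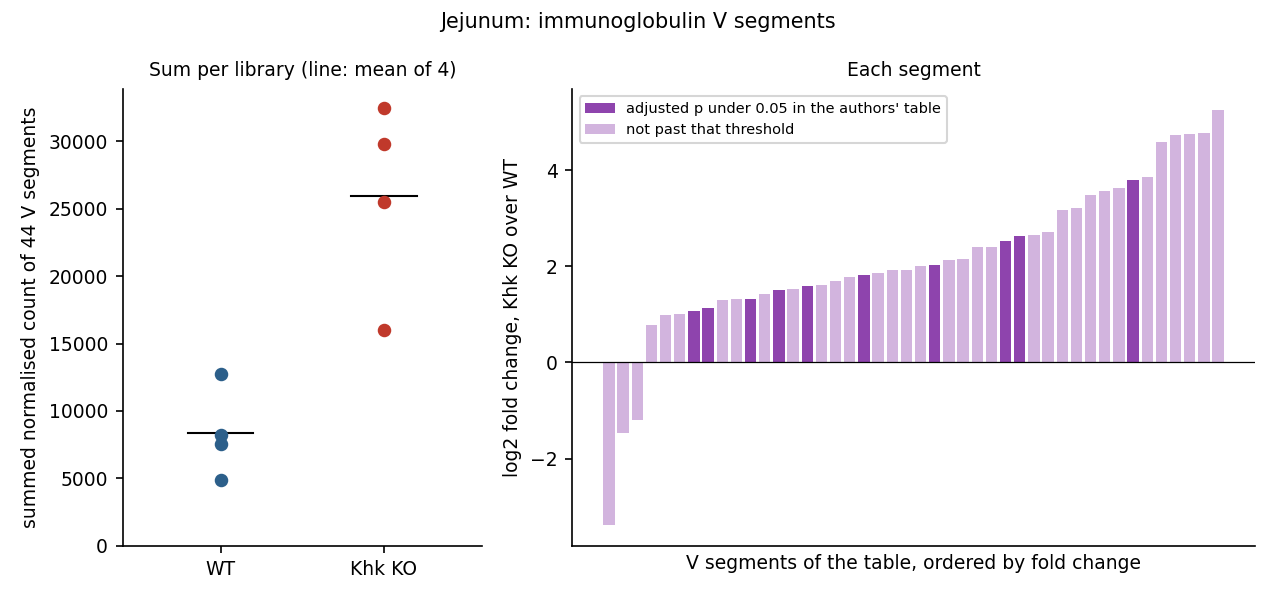
Left, summed normalised counts of the 44 immunoglobulin V segments in each library, with a line at the mean of 4. Right, log2 fold change of each segment in rising order, dark where the authors' adjusted p is under 0.05. The 4 Khk KO sums (15999 to 32513) lie above the 4 WT sums (4868 to 12764), and 41 of 44 segments are above 0. The segments were selected for a difference between the genotypes, which favours such a gap.

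Reg3g, Reg3b, Zg16 and Defa21, secreted antimicrobial proteins of the epithelium, fell. Reg3g, a lectin that kills Gram-positive bacteria, was at 5586, 8122, 7093 and 5614 normalised counts in Khk KO and at 18163, 11726, 18649.7 and 19288 in WT. Every Khk KO library lay below every WT library. Its mean was 38.9% of WT, its log2 fold change -1.36 ± 0.20 (SE) and its adjusted p 9.57e-08 in the authors' deposited table, the lowest after Khk. The short genes nearest to it in length had a median of -0.50, and with the length trend taken out Reg3g was at -0.93. Reg3b, its neighbour on chromosome 6, was at 9059.9, 12160.1, 18924 and 10224 in Khk KO and 33854, 17924, 32138 and 25334 in WT. Khk KO replicate 3 overlapped with WT replicate 2. Reg3b fell by 1.12 ± 0.27 (SE) on the log2 scale, and by 0.59 with the length trend taken out.

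Zg16, a lectin of goblet cell mucus, was at 23798, 28486, 30059 and 24122 in Khk KO and 60418, 45256, 36952 and 37638 in WT, with no overlap. Zg16 changed by -0.76 ± 0.19 (SE), but by -0.23 with the length trend taken out, and genes of like length had a median of -0.58. Of 22 goblet cell markers 6 were in the table and 5 were lower. Zg16 alone passed, against 0.223% of all genes. The median of the 6 was -0.56, or -0.15 with the trend taken out. Of 22 Paneth cell markers 4 were in the table, all defensins of 418 to 508 bases and all lower. Only Defa21 passed, against 0.223% of all genes. Defa21 was at 436, 367, 388 and 193 in Khk KO and 471, 923, 567 and 1242 in WT, with a log2 fold change of -1.21 ± 0.34 (SE) and of -0.90 with the trend taken out. Defa22, at -1.13 ± 0.36 (SE), did not pass. Defensin genes are near-identical copies, so their reads may be split between them. Gsdmd, which forms pores in pyroptosis, fell from 8365 ± 917 to 5905 ± 482 (SD, n = 4). Cxcl16, a chemokine, fell from 1073 ± 146 to 697 ± 47.4. Both were chosen after their values were seen, and with the length trend taken out they changed by -0.10 and -0.30. Zmynd15 on the other strand covers 18.3% of the exon bases of Cxcl16.

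Of the genes of fatty acid oxidation Ppara, a regulator, rose, while 7 of the 9 listed genes in the table were lower. Ppara, the receptor that senses fatty acids and induces their oxidation, was at 509.7, 619, 872 and 916 normalised counts in Khk KO and at 153, 398, 379.9 and 334 in WT, with no overlap. Its log2 fold change was 1.21 ± 0.30 (SE) and its adjusted p 0.0202 in the authors' deposited table. Genes of like length had a median of -0.43, and Ppara was at 1.34 with the length trend taken out and at 0.98 without WT replicate 1. Pdk4, a target of Ppara that blocks glucose oxidation, was at 389.8, 369, 965 and 1487 in Khk KO and 313, 367, 447 and 399 in WT. Khk KO replicates 3 and 4 were high and the other Khk KO libraries were within the WT range, and the log2 fold change of 1.07 ± 0.42 (SE) did not pass. Of 46 listed genes of oxidation and ketogenesis 9 were in the table, 2 higher and 7 lower, and only Ppara passed, against 0.536% of all genes. Their median of -0.44 stood beside -0.43 for genes of like length and became -0.064 with the length trend taken out and -0.28 without WT replicate 1. The sign of 4 of the 9 was opposite to that of genes of like length. Slc25a20, the carnitine carrier of mitochondria, was at 915, 913, 917 and 1000 in Khk KO and 1466, 1186, 1514 and 1186 in WT with no overlap (-0.52 ± 0.12 (SE), adjusted p 0.0575 in the authors' deposited table). Hadh, at -0.44 ± 0.18 (SE), and Slc25a20 were at -0.46 and -0.52 with the length trend taken out, and Hadh was at -0.23 without WT replicate 1. Genes of like length had medians of 0.32 for Hadh and -0.26 for Slc25a20.

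Abca1, which loads cholesterol onto HDL, was at 1509, 1804, 1847 and 1538 in Khk KO and 1163, 754, 1109.6 and 660.4 in WT, with no overlap. Abca1 rose by 0.86 ± 0.19 (SE) on the log2 scale, and by 0.38 with the length trend taken out. It was the only one of 7 fat absorption genes in the table, of 32 listed, that was higher. Apoa1 was at 154208, 125477, 127033 and 136434 in Khk KO and 408134, 168358, 197224 and 157775 in WT. Its log2 fold change of -0.78 ± 0.29 (SE) became -0.36 without WT replicate 1 and -0.18 with the length trend taken out. Apoa4, a chylomicron protein, was at -0.54 ± 0.20 (SE), at -0.042 with the trend taken out and at -0.36 without WT replicate 1, and models on the other strand cover 34.8% to 34.9% of its exon bases. Of 25 fat synthesis genes the table held Slc25a1 and Thrsp, which serve lipogenesis, both lower and neither past the threshold.

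Transporters of the enterocyte in the table were mostly higher, by about as much as genes of like length. Of 52 listed nutrient transporters 11 were in the table, 8 higher and 3 lower, and Slc37a2 rose, against 0.536% of all genes. Slc37a2, a sugar-phosphate exchanger, was at 804, 738, 514 and 777 normalised counts in Khk KO and at 207, 324, 471 and 208 in WT. Every Khk KO library was above every WT library. Its log2 fold change was 1.23 ± 0.28 (SE) (adjusted p 0.008 in the authors' deposited table), 0.98 with the length trend taken out and 1.08 without WT replicate 1. Abcc2, which exports bilirubin and other conjugates across the apical membrane, was at 15187, 15636, 13487 and 18434 in Khk KO and 6783, 9468, 10396 and 8526 in WT. It rose 1.78-fold, by 0.84 ± 0.16 (SE) on the log2 scale with no overlap, and by 0.45 with the length trend taken out. All 11 transporters kept their direction with the trend taken out, where their median of 0.37 became 0.25, and genes of like length had 0.38.

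Of 18 genes of fructose handling 5 were in the table, Khk, which fell, and 4 that were higher and did not pass. Slc2a7, an intestinal hexose transporter related to the main fructose transporter, was at 996, 1433, 1302 and 1499.6 in Khk KO and 834, 898, 808 and 924 in WT, with no overlap. Its log2 fold change was 0.59 ± 0.14 (SE) and its adjusted p 0.0539 in the authors' deposited table. At 1867 bases it was among genes with a median of -0.54, of which 91.5% had a lower fold change, and it was at 1.04 with the length trend taken out. Slc2a2, which passes glucose and fructose to the blood, was at 10716, 11719.9, 11555 and 14061 in Khk KO and 10919, 8499, 8619 and 7151 in WT, where only WT replicate 1 reached the Khk KO range (0.45 ± 0.16 (SE), and 0.30 with the length trend taken out). Atp2b1, the plasma membrane calcium pump (0.62 ± 0.17 (SE)), was at 0.067 with the trend taken out. Slc34a2, a phosphate carrier, was at 73.7, 34.1, 53.4 and 9.5 in Khk KO and 764, 154, 44.6 and 249.6 in WT, where WT replicate 1 was the highest library (-2.82 ± 0.83 (SE), and -1.80 without that library).

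Of 37 brush border enzymes 9 were in the table, 5 higher and 4 lower, and none passed, where 0.759% of all genes did. Mgam, maltase-glucoamylase, was at 49176, 58894, 62903 and 65298 in Khk KO and 51779.9, 38671, 39056 and 38703 in WT. Without WT replicate 1 the genotypes did not overlap. Mgam (0.49 ± 0.16 (SE)) and Sis (0.39 ± 0.15 (SE)) are long, and with the length trend taken out they were at 0.064 and 0.043. Alpi, intestinal alkaline phosphatase, is short and was at 0.52 ± 0.20 (SE), or 0.91 with the trend taken out. Its near copy Akp3 was at 2776, 6029, 1155 and 8222 in Khk KO and 211, 993, 1844 and 103 in WT, a range wider than the difference between the means. Sis and Alpi were chosen after their values were seen. Absorptive enterocyte markers numbered 14 in the table, of 35 listed, 9 higher and 5 lower. Only Reg3g and Reg3b of these passed, and both fell, against 0.223% of all genes. The enterocyte regulators Hnf4g (0.66 ± 0.20 (SE)) and Onecut2 (0.68 ± 0.19 (SE)) were higher and did not pass, and taking the trend out put Hnf4g at 1.00 and Onecut2 at 0.16.

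Iron handling was the stated interest of the series. Of 55 listed genes 11 were in the table, 4 higher and 7 lower, and only Ncoa4 passed, against 0.536% of all genes. Ncoa4, the receptor that carries ferritin to the lysosome, was at 1481, 1578, 1447 and 3121 normalised counts in Khk KO and at 468, 1068, 1072 and 787 in WT. Khk KO replicate 4 stood above the other 3 Khk KO libraries, which still exceeded all WT libraries. The log2 fold change was 1.17 ± 0.32 (SE), 0.74 with the length trend taken out and 0.97 without WT replicate 1, and the authors' deposited table gave an adjusted p of 0.0307. Tfrc, the transferrin receptor, was at 2664, 3164, 2965 and 3145 in Khk KO and 1889, 2293, 2632 and 2175 in WT. Slc25a37, which brings iron into mitochondria, was at 2386, 2549.8, 2656 and 2677 in Khk KO and 2122, 1672, 1962 and 2005 in WT. Neither gene overlapped between the genotypes, nor did 56.0% of all genes of the table. Neither passed (0.41 ± 0.13 (SE) and 0.40 ± 0.11 (SE)). Their fold changes were close to those of genes of like length, with medians of 0.40 and 0.40. The median of the 11 genes was -0.83, or -0.26 without WT replicate 1 over the 9 that could be fitted. With the length trend taken out it was -0.072 over the 9 fitted, and genes of like length had -0.40. With it taken out Tfrc was at 0.21 and Slc25a37 at 0.22.

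Of 26 circadian clock genes 5 were in the table, all higher and none past the threshold, where 0.759% of all genes were. Dbp, a clock output factor, was at 1896, 2292, 1985 and 1947 in Khk KO and 1521, 1555, 1592 and 1501 in WT, with no overlap. Nr1d1, a repressor in the clock loop, was at 2090.2, 2576, 2117 and 1909.8 in Khk KO and 1413, 1845, 1362 and 1895 in WT, where the lowest Khk KO library was just above the highest WT library. Both are short genes, and with the length trend taken out Dbp went from 0.40 ± 0.11 (SE) to 0.71 and Nr1d1 from 0.42 ± 0.15 (SE) to 0.70. The period genes Per1 (0.69 ± 0.21 (SE)) and Per2 (0.66 ± 0.21 (SE)) overlapped between the genotypes. Per3, chosen after its values were seen, was at 0.42 ± 0.18 (SE) and turned to -0.014 with the trend taken out. The labels give no hour of collection. Sphk2 on the other strand covers 18% of the exon bases of Dbp.

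Regulators of chromatin in the table were long genes and were higher by about as much as genes of like length. Of 59 listed chromatin genes 40 were in the table, 39 of them higher, and 6 rose, against 0.536% of all genes. Their lengths were 4026 to 23148 bases. The median log2 fold change was 0.50, genes of like length had 0.49, and with the length trend taken out the median was 0.049, with 24 of 40 in the same direction. Kmt2a, a histone methyltransferase, was at 719.6, 1032, 1108 and 1225 normalised counts in Khk KO and at 559, 561, 592 and 650.0 in WT, with no overlap. It rose by 0.79 ± 0.17 (SE), Kmt2c by 0.73 ± 0.16 (SE) and Kmt2d by 0.79 ± 0.20 (SE) on the log2 scale. With the length trend taken out they were at 0.22, 0.13 and 0.20. Lcor, a corepressor of nuclear receptors, stood above this. It was at 272, 377, 251 and 439.7 in Khk KO and 96, 121, 154 and 194 in WT, with no overlap, and rose by 1.24 ± 0.27 (SE), or by 0.91 with the trend taken out. Of the 200 genes nearest to Lcor in length, 96% had a lower fold change.

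Hipk2, a kinase that acts on transcription factors, was at 1270.4, 1754, 1734 and 2477 in Khk KO and 472, 1184, 877 and 910.0 in WT and rose by 1.07 ± 0.28 (SE) on the log2 scale, 0.68 with the trend taken out. Cdk12, which phosphorylates RNA polymerase II, was at 678, 763, 707 and 749 in Khk KO and 373, 424, 420.0 and 482 in WT. It rose by 0.77 ± 0.12 (SE) with an adjusted p of 0.000669 in the authors' deposited table, and was at 0.30 with the trend taken out. Polr2a, the large subunit of that polymerase, rose by 0.45 ± 0.11 (SE) and was at 0.15. Of 26 genes of Wnt and Notch signalling 6 were in the table, all higher, and Apc (0.64 ± 0.15 (SE)) and Notch2 (0.68 ± 0.16 (SE)) rose, against 0.536% of all genes. Their median of 0.56 stood beside 0.47 for genes of like length, and with the length trend taken out it was 0.11 with 4 of the 6 higher. Apc, the brake on beta-catenin, was at 0.071 with the trend taken out, and Notch2 at 0.24. Ank3, a scaffold of the lateral membrane and at 34838 bases one of the longest genes, was at 1854, 1788, 1862 and 2005 in Khk KO and 1457, 1156, 1015 and 1052 in WT. It rose by 0.68 ± 0.13 (SE) and turned to -0.033 with the trend taken out. Cdk12, Polr2a and Ank3 were chosen after their values were seen.

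Genes of protein synthesis, respiration and the proteasome in the table were nearly all lower. Of 105 cytosolic ribosomal protein genes 41 were in the table, all lower, and 2 fell, Rps27rt and Rpl17, against 0.223% of all genes. Their median log2 fold change was -0.43, beside -0.56 for genes of like length, and -0.0057 with the length trend taken out. Summed over the 41 genes the libraries held 147280.0 to 193646 in Khk KO and 204794 to 281596 in WT, and the genotypes did not overlap. These genes were selected for a difference, which favours such a gap. Rps27rt, a retrogene whose sequence is close to that of Rps27, was at 398, 518, 727 and 424 in Khk KO and 1828, 2539, 1194 and 1250.1 in WT. It fell by 1.72 on the log2 scale, and was at -1.36 with the trend taken out, but reads may be shared with the parent gene. Rpl17 changed by -0.76 ± 0.19 (SE) and was at -0.32 with the trend taken out. Of 115 respiratory chain genes 33 were in the table, all lower, and none passed, with a median of -0.56 that became -0.20 without WT replicate 1. Of 50 proteasome genes 17 were in the table, 16 of them lower. None passed in this list either, where 0.759% of all genes did. With the trend taken out the medians of these lists were -0.048 and -0.026. Mrpl58, a mitochondrial ribosome release factor, was at 439, 371, 342 and 312 in Khk KO and 807, 623, 703 and 475 in WT and changed by -0.83 ± 0.18 (SE), and by -0.56 with the trend taken out.

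Markers of smooth muscle, nerve, fat and blood in the table were mostly lower. Of 25 smooth muscle markers 12 were in the table, 11 lower, and none passed, where 0.759% of all genes did. Their summed normalised counts were 25053 to 33457 in Khk KO and 31692 to 62421 in WT, and 31692 to 40273 in WT without replicate 1. Acta2 (-0.68 ± 0.19 (SE)), Myl9 (-0.77 ± 0.21 (SE)) and Des (-0.85 ± 0.28 (SE)), proteins of the contractile apparatus, overlapped between the genotypes, and WT replicate 1 was the highest library for each. With the length trend taken out Acta2 was at -0.20, Myl9 at -0.26 and Des at -0.63, and without WT replicate 1 Des was at -0.54. The median of the 12 markers went from -0.64 to -0.31 with the trend taken out, and genes of like length had -0.42. Their part in the other results was not tested. Acta1, skeletal muscle actin and also present in smooth muscle, was at 67.7, 82.1, 90.3 and 69.3 in Khk KO and 243, 159, 152 and 339 in WT with no overlap. Acta1 fell by 1.53 on the log2 scale (adjusted p 0.000975 in the authors' deposited table) and was at -1.07 with the trend taken out. Vip, a peptide of enteric neurons, was at 188, 166, 239 and 77.9 in Khk KO and 510.2, 373, 252 and 382 in WT, with no overlap. It changed by -1.18 ± 0.33 (SE), and by -0.91 with the trend taken out. Of 24 neuron and glia markers 4 were in the table, 3 of them lower, and Vip alone passed, against 0.223% of all genes.

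Of 28 enteroendocrine markers 6 were in the table, all lower and none past the threshold, where 0.759% of all genes were. Their median was -0.72, or -0.33 with the length trend taken out. Scg2, a granule protein, was at 247, 238, 277 and 211 in Khk KO and 548, 387, 349 and 331 in WT, and Sct, the hormone secretin, was at 331, 372, 303 and 375 in Khk KO and 893, 519.9, 490.2 and 390.0 in WT. Cpe, a prohormone-processing enzyme, was at -0.63 ± 0.20 (SE). None of these 3 genes overlapped between the genotypes, nor did 56.0% of all genes of the table. WT replicate 1 was the highest library for each of the 3. Without it Sct went from -0.73 ± 0.24 (SE) to -0.43 and Cpe to -0.40. With the length trend taken out Scg2 went from -0.73 ± 0.19 (SE) to -0.31, and Sct and Cpe were at -0.23 and -0.22. All 7 adipocyte markers in the table, of 19 listed, were lower. Their summed counts were 352 to 705 in Khk KO and 372 to 4132 in WT, where 4132 is WT replicate 1 and the other WT libraries held 372 to 1264. Adipoq, adiponectin, was at 31.7, 29.7, 21.2 and 9.5 in Khk KO and 242, 76.9, 3.34 and 62.4 in WT, and Fabp4 and Lpl had the same highest library. The log2 fold change of Adipoq was -2.05 ± 0.88 (SE), or -1.04 without WT replicate 1. Lpl, chosen after its values were seen, went from -1.97 ± 0.77 (SE) to -0.53 without WT replicate 1, and Fabp4 from -1.10 ± 0.50 (SE) to -0.23. The 4 globin genes of 15 red blood cell markers were lower, with summed counts of 389 to 719 in Khk KO and 532 to 1543 in WT, and Hbb-bs was at -1.10 ± 0.32 (SE), or -0.66 with the trend taken out. Whether fat or blood in a sample moved other genes was not tested.

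Tnc, the matrix protein tenascin C, was at 458, 712, 404 and 744 in Khk KO and 445, 100, 45.7 and 72.8 in WT. WT replicate 1 lay within the Khk KO range and the other 3 WT libraries far below it. The log2 fold change of 1.80 ± 0.63 (SE) did not pass, and without WT replicate 1 it was 2.99, with an adjusted p of 0.0115 from edgeR's quasi-likelihood test. Dclk1, a tuft cell marker, was at 434, 253, 305 and 424 in Khk KO and 179, 170.4, 229 and 244 in WT (0.78 ± 0.22 (SE), and 0.26 with the length trend taken out). Among tuft cell markers the table held 3 of 24, 2 higher and 1 lower, and none passed, where 0.759% of all genes did. Of 29 T cell markers Gzmb and Il2rb were in the table and of 27 macrophage and dendritic cell markers Mertk and Ly6c2, all higher and none past the threshold. Il2rb was 38 in WT replicate 1 and 198 to 245 in the other WT libraries, against 288 to 337 in Khk KO. The table held 1 of 21 stem cell and 1 of 36 proliferation markers, 2 of 30 pancreas acinar markers and none of 12 mast cell markers. Those pancreas markers were Zg16 and the elastase Cela1.

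**Figure D5:**
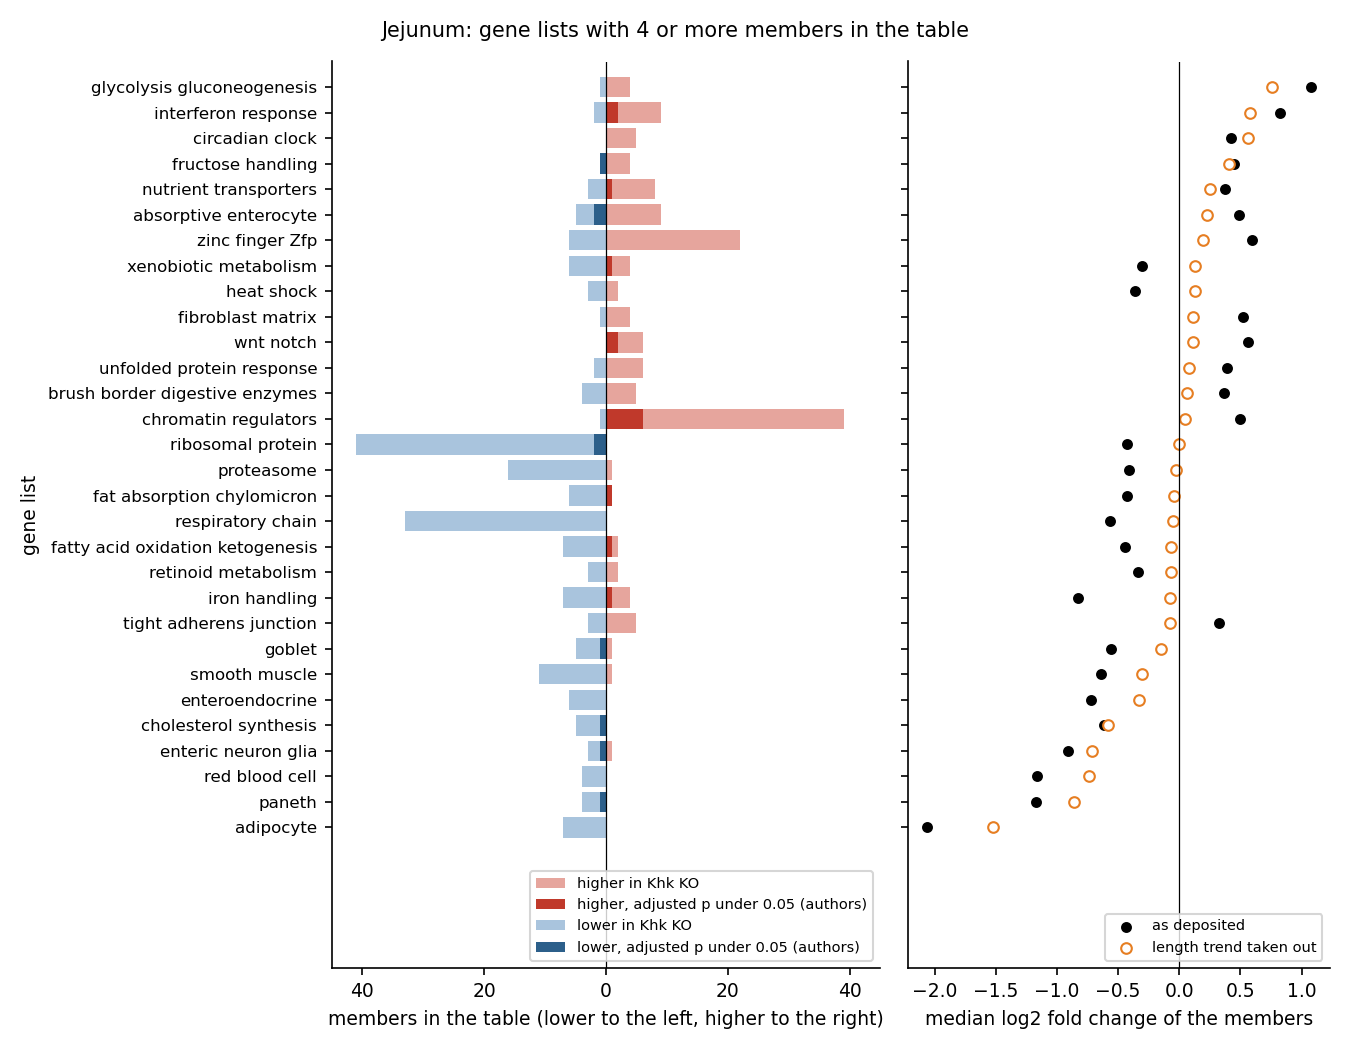
Left, members of each gene list with 4 or more genes in the table, lower in Khk KO to the left and higher to the right, dark where the authors' adjusted p is under 0.05. Right, median log2 fold change of the members as deposited (filled) and with the length trend taken out (open). The medians of the chromatin (0.50 to 0.049) and ribosomal protein (-0.43 to -0.0057) lists move to near 0, while those of the interferon (0.83 to 0.58) and cholesterol (-0.62 to -0.58) lists stay away from it. The cholesterol list has a median length of 4415 bases, and at 4475 bases the curves lie at -0.049 to 0.14. Little is taken out at that length, so the contrast does not set this list apart from the trend.

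A few called genes ran against the sign of genes of like length. Among the protein-coding genes reported here these were Ppara, Iigp1, Fam83b and Itgb2l, which rose, and Selenof, which fell. Itgb2l, an integrin beta subunit, was at 136, 262, 252 and 317 in Khk KO and 92.7, 129.7, 79.1 and 135 in WT, with no overlap. It rose by 1.15 ± 0.29 (SE), and by 1.22 with the trend taken out. Fam83b was at 675, 661, 754 and 1131 in Khk KO and 372, 358, 395 and 574 in WT. It rose by 0.92 ± 0.22 (SE), and by 1.07 with the trend taken out. Selenof, a selenoprotein of the endoplasmic reticulum, was at 2806, 2454, 2655 and 2392 in Khk KO and 5435, 3746, 3977 and 3124 in WT. It changed by -0.66 ± 0.17 (SE), and by -0.82 with the trend taken out. Selenof was chosen after its values were seen, as was Dio1, which activates thyroid hormone. Dio1 fell from 1692 ± 248 to 1082 ± 147 (SD, n = 4), and was at -0.18 with the trend taken out.

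Among genes without overlap that did not pass, taking the length trend out gave large values for Bmp8a, a growth factor, and Uprt, of pyrimidine salvage, at 1.20 and 1.17 on the log2 scale. Bmp8a was at 293, 344, 318 and 569 in Khk KO and 204, 202, 266 and 199.7 in WT, and Uprt at 164, 164, 167 and 253 in Khk KO and 141, 94.5, 86.9 and 127 in WT. In the other direction Ebpl, a relative of the sterol isomerase Ebp, was at 226, 192, 222 and 219 in Khk KO and 786, 334, 296 and 233 in WT, and it was at -1.54 with the trend taken out. As fitted with all libraries Ebpl was at -0.94 ± 0.35 (SE), and without WT replicate 1 at -0.42. Zc3h11a, an RNA export factor, had the largest called fold change of a protein-coding gene that rose (1.38 ± 0.36 (SE)), at 146, 208, 241 and 340.0 in Khk KO and 49.1, 73.6, 86.9 and 148 in WT. Another annotated gene on the same strand covers 72.9% of its exon bases, so its reads are uncertain.

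Because every gene of the table has an unadjusted p under 0.05, the members in the table are also the count at that level. In 24 lists none of the 173 members in the table passed the authors' test, where 75 of the 2413 genes of the table did (0.759% of all genes). These lists were put together because none of their members passed, so that count of 0 is not a result. DESeq2 called 14 of these 173 members, among which were 4 of the proteasome and 2 of smooth muscle, where it called 10.9% of the genes of the table. The remaining lists held few called genes. Of 62 genes of xenobiotic metabolism 10 were in the table, 4 higher and 6 lower. Abcc2 alone passed, against 0.536% of all genes. None passed among 8 genes of the unfolded protein response (6 higher, of 30 listed), 8 of junctions (5 higher, of 31), 5 of heat shock (2 higher, of 24), 5 of retinoid metabolism (2 higher, of 24), 5 of glycolysis and gluconeogenesis (4 higher, of 31), 5 of the matrix (4 higher, of 40) and 28 zinc finger genes (22 higher, of 453). The table held 2 of 14 genes of MHC class II presentation, Ciita and Cd80, both higher and neither past the threshold. With the length trend taken out the medians went from 0.32 to -0.073 for junctions, from 0.39 to 0.078 for the unfolded protein response and from 0.59 to 0.20 for zinc finger genes.

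The jejunal genes were also looked up in the authors' deposited tables of the other intestinal segments, which hold genes chosen by the same rule. The labels do not say whether the segments came from the same mice. Of the 53 genes that rose in jejunum the ileum table held 39, 38 of them higher and 31 called, and the duodenum table held 21, all higher and 5 called. Of the 22 that fell the ileum table held 16, all lower and 12 called, and the duodenum table held 8, all lower and 3 called. Of all 1222 genes that the jejunum and ileum tables share, 1205 (98.6%) had the same direction, as had 436 of 438 (99.5%) for jejunum and duodenum, so a shared direction was the rule among genes of these tables. Among the shared genes 823 of the 1222 were called in ileum and 23 of the 438 in duodenum. Hnf4g, at 0.66 in jejunum, was at 1.55 in ileum (adjusted p 3.08e-14) in the authors' deposited tables. Of the 10 V segments that rose, 9 were in the duodenum table and 4 in the ileum table, and the authors' deposited tables gave Igkv1-117 log2 fold changes of 1.97 in duodenum (adjusted p 0.0229) and 0.63 in ileum (adjusted p 0.064). The authors' deposited duodenum table also held Tnc at 3.78 (adjusted p 1.86e-24). Reg3g, Reg3b, Iigp1 and Slc37a2 were in neither table. No difference between segments was tested.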

How the data were processed

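Polyadenylated RNA of jejunum was sequenced from 4 Khk KO and 4 WT male mice, per the labels. The labels' protocols give isolation with a Qiagen kit, fragmentation and random priming, and mention library chemistries with and without strand. HISAT2 2.0.5 and the build GRCm38 (mm10) are named in the submitters' processing notes. The counting tool and the authors' test are not given in the sources used here. The authors deposited raw read counts per gene, FPKM values and a signal, here called normalised count, which is the count over a size factor of the library. They also deposited a log2 fold change, a p-value and an adjusted p-value, and a gene length in bases, per the file headers. For duodenum and ileum the deposited signal, log2 fold changes and p-values were used. The ranks of the deposited p-values give 9881 genes adjusted over, and 759 genes with an adjusted value of exactly 1 and a mean of at most 125 were read as not adjusted.

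Counts were refitted with edgeR 4.0.16 in R 4.3.3, with the authors' size factors, filterByExpr, its quasi-likelihood F test between the genotypes and Benjamini-Hochberg adjustment over 9881 genes. A log2 fold change with SE is from this refit, and its SE rests on genes selected for a difference. DESeq2 1.42.0 was an alternative. FPKM served only to find the library totals given to edgeR, 14797693 to 19915152, which may not be depths. The depth is unknown apart from the reads of the table's genes. The length trend was a lowess curve (span 0.5) per library of log2 of the normalised count plus 1, less the mean of 8 libraries, against log2 gene length, fitted where a gene averaged 10 or more, taken out as an offset. Genes of like length are the 200 protein-coding genes of the table nearest in length, which were selected too. The scripts were tested on simulated data. Positions equal GENCODE M21 for 96.3% of the genes, and exon overlaps were taken from it. Of the 2413 symbols, 65.6% have a RefSeq promoter, matched by symbol, and none was found for Iigp1 or Fdft1. The rest used Python 3.11.15 and its libraries pandas 2.3.3 and numpy 2.4.6, with figures from matplotlib 3.10.9 and the permutation test from scipy 1.17.1.

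The genes and lists were chosen with earlier results of these data known. The rule for named genes is Khk, the 10 largest rises and falls among called protein-coding genes that average 100 or more, up to 4 members per list with the lowest p in the authors' deposited table, and the 5 largest rises and falls after the length trend is taken out among genes without overlap. Not every such gene is printed, and some results are not reported here. Alternatives were TMM scaling, DESeq2, no filter, adjustment over the genes fitted, the length trend taken out, the replicate number as a block, and leaving out each library. That V segments and medians of lists are also given without WT replicate 1 was chosen after seeing the data.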

Additional observations from a re-analysis of the deposited data

Results flagged for a closer look

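Among 182 groups of 4 libraries of the genes named above, 20 held a library whose gap to the nearest other, as a share of the group's range, was above Dixon's critical value, where chance alone gives about 1 in 20 groups. In 10 of the 20 that library was WT replicate 1. It was the highest WT library, with gap shares of 0.871 for Khk, 0.842 for Apoa1, 0.971 for Mgam and 0.841 for Gsdmd. It was also the highest for Lpl (0.85) and Fabp4 (0.878) of adipocytes, for the matrix gene Tnc (0.864), for Xaf1 (0.886) and for Erg28 (0.856), and the lowest for the interferon-induced Tgtp2 (0.956).

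Khk KO replicate 1 was low for Khk (0.893) and for Rnf213 (0.847). Khk KO replicate 4 was low for Irgm1 (0.886) and high for Ncoa4 (0.922), Slc25a20 (0.954) and Uprt (0.964), and Khk KO replicate 3 was low for Erg28 (0.923). In WT, replicate 2 was low for Reg3g (0.851), replicate 3 was high for Bmp8a (0.93) and replicate 4 was high for Ighv8-8 (0.875). Without WT replicate 1, Tnc had a log2 fold change of 2.99 in place of 1.80, Lpl -0.53 in place of -1.97 and Apoa1 -0.36 in place of -0.78. The cause of the gaps was not tested.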

How the results depend on the processing

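The number of genes called by edgeR was 1 under TMM scaling, without the filter, with adjustment over the genes fitted and with the length trend taken out, and DESeq2 called 262, of which 184 were higher. Leaving out each library gave 0 to 3 calls, with 0 where a Khk KO library was left out. The log2 fold change of Khk ran from -3.58 to -3.05 over the left-out libraries, with adjusted p-values from 3.01e-05 to 0.132. Same-numbered libraries of the 2 genotypes had correlations of their deviations of 0.315, 0.0188, 0.0112 and 0.291 over 1819 genes. Not every library correlated best with its own number. These deviations still hold the length trend of each library, so they cannot tell whether a shared number marks a pairing. With the replicate number as a block edgeR called 0 genes, 1648 having an unadjusted p under 0.05, and Khk was at -3.34 with an adjusted p of 0.155. The block together with the length trend taken out called 5 genes, 4 of them higher. The mean difference of the length trend between the genotypes was 0.93 with a minimum mean of 50, 0.984 with a span of 0.3, and 0.686 to 1.06 over the left-out libraries, lowest without WT replicate 1. Of the 90 other named genes 3 changed sign with the length trend taken out, Ebp (0.086), Per3 (-0.014) and Ank3 (-0.033). With the block added Ebp was at 0.097 and Per3 at -0.019. DESeq2 put 54 of the 90 past the threshold, and leaving out WT replicate 1 put Tnc and Ank3 past it. The 41 V segments that were higher were also 41 without WT replicate 1. The causes were not tested. Counts within the table cannot bound the genes it leaves out.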
